A study of Saccharomyces cerevisiae with 2 samples.

Results

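Several proteins of yeast respiration are encoded by gene pairs, of which one member is used mainly with oxygen and the other mainly when oxygen is scarce. The genes described here are 3 such families and a repressor: CYC1 and CYC7 for cytochrome c, COX5A and COX5B for subunit V of cytochrome c oxidase, PET9, AAC1 and AAC3 for the ADP/ATP carrier of the inner mitochondrial membrane, and ROX1. They were picked by name, with their ratios in the present comparison already known, and all 8 of 8 had a value on both arrays, among 5598 named genes. Their own ratios are therefore given as a description, and nothing is read from a test of them.

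The arrays compared transcripts of Saccharomyces cerevisiae supplied with 3% pyruvate and with 2% glucose. Each of 2 arrays held RNA of both conditions. Pyruvate RNA carried Cy3 on array 1 and Cy5 on array 2. The sources used here give no strain, genotype, medium, aeration or harvest time and no oxygen treatment, so "aerobic" and "hypoxic" below name what the isoforms are known for and not how these cells were grown. Each value is a log2 ratio of pyruvate over glucose, in which 1 stands for a doubling, given for each array and then as a mean ± SD with n = 2. That direction is likely but stated by no source: it takes the deposited ratio as Cy5 over Cy3, and in the opposite order every sign would turn. Nothing in the labels tells whether separate cultures or 1 pair of RNA samples went onto both arrays. The p-values given for other genes therefore rest on spread between arrays, which may be technical alone. The test used, limma, also borrows part of that spread from the other genes. A ratio does not compare the levels of 2 genes, and whether fewer cells carried a transcript or each cell carried less of it cannot be told apart.

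Cytochrome c carries electrons from the bc1 complex to cytochrome c oxidase, and subunit V is one of the nuclear subunits of that oxidase. The carrier exchanges ATP made in the mitochondrion for ADP of the cytosol. In textbook accounts, oxygen acts through heme: with heme, the activator Hap1 and the Hap2/3/4/5 complex turn on aerobic genes such as CYC1, and Rox1, whose own gene is turned on by heme through Hap1, represses hypoxic genes such as COX5B and AAC3. Glucose represses many respiratory genes as well, so carbon source and oxygen act on overlapping genes.

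In pyruvate the aerobic isoform had the higher ratio in each of the 3 families, and the hypoxic isoforms split. The aerobic genes CYC1, COX5A and PET9 had mean ratios between 2.11 and 3.43. Of the 3 hypoxic genes, CYC7 was higher in pyruvate, at 1.73, COX5B lay close to 0, at -0.25, and AAC3 was lower, at -2.19. ROX1 also lay close to 0, at -0.16. By limma's moderated test over all genes, 5 of the 8 were called higher and 1 lower at an adjusted p under 0.05, against 44.3% of all genes called in either direction (27.1% higher and 17.2% lower). At least 2-fold on both arrays, 5 were higher and 1 lower, against 12.7% higher and 4.81% lower (17.5% in either direction) among all genes. Without moderation limma called 0 of the 8 (3 higher and 1 lower at an unadjusted p under 0.05). Nothing is read from these counts, because the genes were chosen on this comparison.

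**Figure D1:**
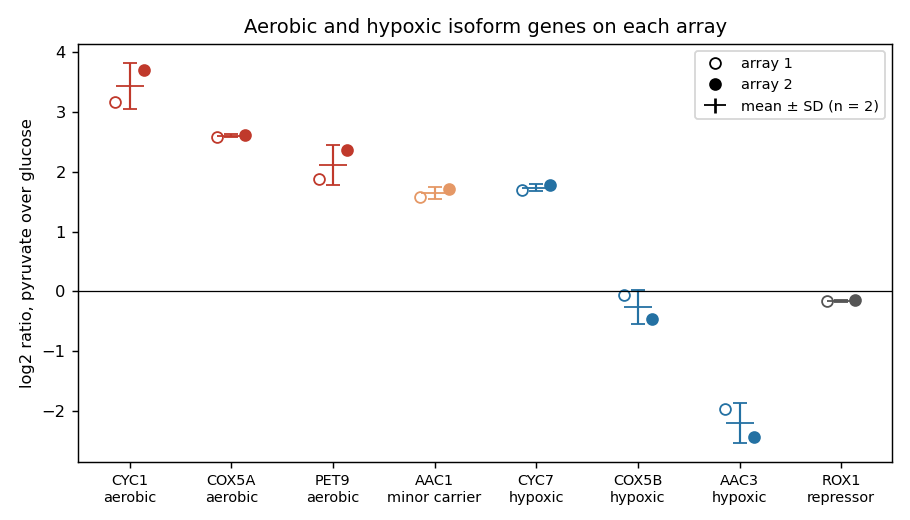
Log2 ratio of pyruvate over glucose for the 8 genes (vertical axis), with array 1 as open and array 2 as filled circles, and the mean ± SD as a bar. CYC1, COX5A, PET9, AAC1 and CYC7 lie above 0 on both arrays, AAC3 lies below -1.9 on both, and COX5B and ROX1 lie just below 0.

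CYC1 encodes iso-1-cytochrome c, the main form in aerobic cells. Its ratio was 3.16 on array 1 and 3.70 on array 2, a mean of 3.43 ± 0.38, or 10.8-fold higher in pyruvate. Of the 5598 genes 63 had a higher mean ratio. CYC7 encodes iso-2-cytochrome c, the minor form. It stood at 1.70 on array 1 and 1.77 on array 2, a mean of 1.73 ± 0.05 or 3.33-fold higher in pyruvate. Both cytochrome c genes were thus higher on both arrays, and the values of CYC7 lay below those of CYC1 without overlap. CYC7 is the hypoxic isoform gene of these 3 families that was higher in pyruvate.

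COX5A encodes subunit Va, the aerobic form. The ratio of COX5A was 2.58 on array 1 and 2.61 on array 2, a mean of 2.60 ± 0.02 or 6.05-fold higher in pyruvate, and the gap of 0.034 between the arrays was small beside a median gap of 0.179 over all genes. COX5B encodes subunit Vb, the form used when oxygen is low. It was at -0.05 on array 1 and -0.45 on array 2, a mean of -0.25 ± 0.28, so that the SD exceeded the mean. Of this pair, only COX5A lay further from 0 than its SD.

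PET9, also called AAC2, encodes the main ADP/ATP carrier of respiring cells. PET9 had ratios of 1.87 on array 1 and 2.35 on array 2, a mean of 2.11 ± 0.34 or 4.33-fold higher in pyruvate. AAC1 encodes a carrier of low abundance that is made in the presence of oxygen. Its ratio was 1.58 on array 1 and 1.71 on array 2, a mean of 1.64 ± 0.10 or 3.12-fold higher in pyruvate. PET9 was above AAC1 on both arrays, by less on array 1. AAC3, the carrier gene expressed without oxygen, had ratios of -1.96 on array 1 and -2.43 on array 2. Its mean of -2.19 ± 0.33 made it 4.56-fold lower in pyruvate, and 29 genes of the 5598 had a lower mean. It is the only one of the 8 genes that was at least 2-fold lower.

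ROX1 encodes the repressor of hypoxic genes. The ratio of ROX1 was -0.17 on array 1 and -0.15 on array 2, a mean of -0.16 ± 0.02. The arrays lay 0.0215 apart, the closest of the 8 genes, and 34.7% of all genes had a lower mean. Its transcript thus stood near the middle of all genes while the hypoxic isoforms ranged from -2.19 to 1.73. The ratio gives no amount or activity of the Rox1 protein.

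**Figure D2:**
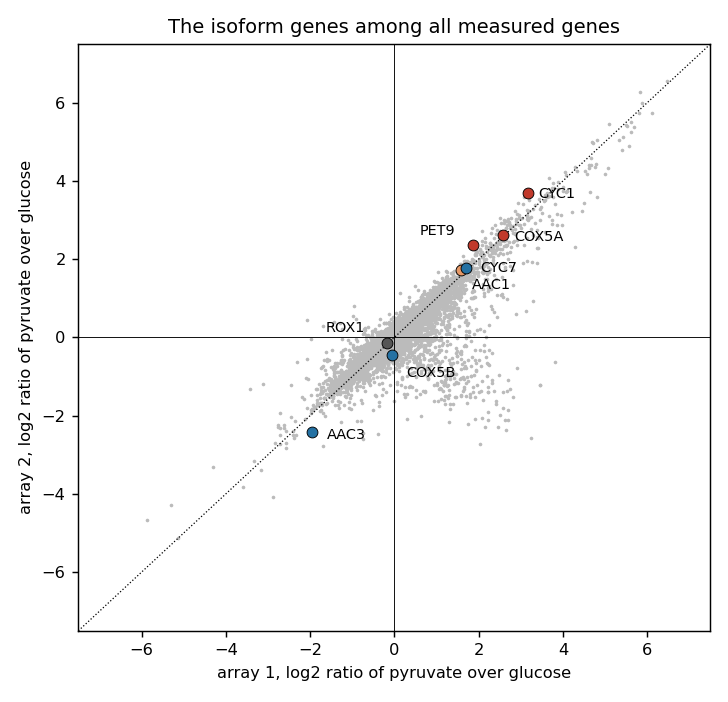
Log2 ratio of pyruvate over glucose on array 1 (horizontal) and array 2 (vertical) for all 5598 named genes in grey and the 8 genes in colour (red aerobic, orange AAC1, blue hypoxic, dark grey ROX1), with the line of equal values dotted. CYC1 and AAC3 lie towards opposite ends of the cloud, and ROX1 and COX5B lie in its centre.

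The ratios repeated closely between the features of a gene. Of the 8 genes, 5 were measured by 2 features and 3 (CYC1, COX5A and PET9) by 1. The gap between the features of CYC7, COX5B, AAC1, AAC3 or ROX1 ran from 0.001 to 0.114 within an array, beside medians of 0.054 on array 1 and 0.051 on array 2 over the 3587 genes with several features. For AAC3 the features read -1.92 and -1.99 on array 1, against -2.43 and -2.43 on array 2, so the arrays differed more than the features. The arrays differed by more than the median gap of 0.179 in 4 of the 8 genes: CYC1 (0.541), PET9 (0.478), AAC3 (0.471) and COX5B (0.401). With 1 array for each dye order, a lean to a dye and any other difference between the arrays cannot be told apart. Array 2 gave the larger size in 7 of the 8 genes, ROX1 being the other, against 41.9% of all genes. None of the 13 features had the small whole-number ratio taken here as the sign of a dim spot. Signal values were lacking, so a dim spot without that sign would be missed. Probe sequences were not used here, so how far a probe for one isoform also binds the transcript of its paralogue was not tested, and each isoform's value carries that uncertainty.

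The difference between isoforms was taken within each array, where any shift shared by all features cancels. It was smallest for cytochrome c. CYC1 minus CYC7 was 1.46 on array 1 and 1.93 on array 2, a mean of 1.70 ± 0.33, which is a 3.24-fold change in the ratio of the transcripts. COX5A minus COX5B was 2.63 on array 1 and 3.07 on array 2, a mean of 2.85 ± 0.31, or 7.20-fold. The carrier genes lay furthest apart. PET9 minus AAC3 was 3.83 on array 1 and 4.78 on array 2, a mean of 4.30 ± 0.67, or 19.7-fold. AAC1 minus AAC3 was 3.53 on array 1 and 4.14 on array 2, a mean of 3.83 ± 0.43, or 14.3-fold. The array values of the 3 families did not overlap in this difference. The 2 carrier differences, which share AAC3, did overlap.

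Other paired genes known for aerobic and hypoxic use did not all show such a difference. By limma's test 1 of the 6 rose and 2 fell, a share near the 44.3% called over all genes. HYP2 and ANB1 encode the aerobic and hypoxic forms of the translation factor eIF5A. HYP2 read -0.67 on array 1 and 0.06 on array 2, ANB1 read -0.36 on array 1 and -0.30 on array 2, and neither passed (limma adjusted p of 0.377 and 0.0718). HMG1 and HMG2 encode HMG-CoA reductases of sterol synthesis, the first the main aerobic form. HMG1 fell to -0.45 ± 0.04, while HMG2, at -0.02 ± 0.05, did not pass, so this pair leaned the other way, with HMG1 minus HMG2 at -0.43 ± 0.09. ACS1 and ACS2 encode acetyl-CoA synthetases, of which ACS1 is repressed by glucose and ACS2 also serves cells without oxygen. ACS1 rose by 3.64 ± 0.05 and ACS2 fell by 0.60 on the log2 scale, to -0.60 ± 0.10. ACS1 minus ACS2 was 4.24 ± 0.15, or 18.9-fold, close to PET9 minus AAC3 at 4.30 ± 0.67. With each array centred on its median, HMG1 (-0.56, limma adjusted p of 0.205) and ACS2 (-0.71, limma adjusted p of 0.0938) no longer passed, though their ratios were no smaller in size. With centred arrays, here and below, the adjusted p of the listed genes followed the size of the mean alone, whatever a gene's spread. Such a change of call therefore mixes centring with another estimate of spread, and which of them moved a call was not tested.

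**Figure D3:**
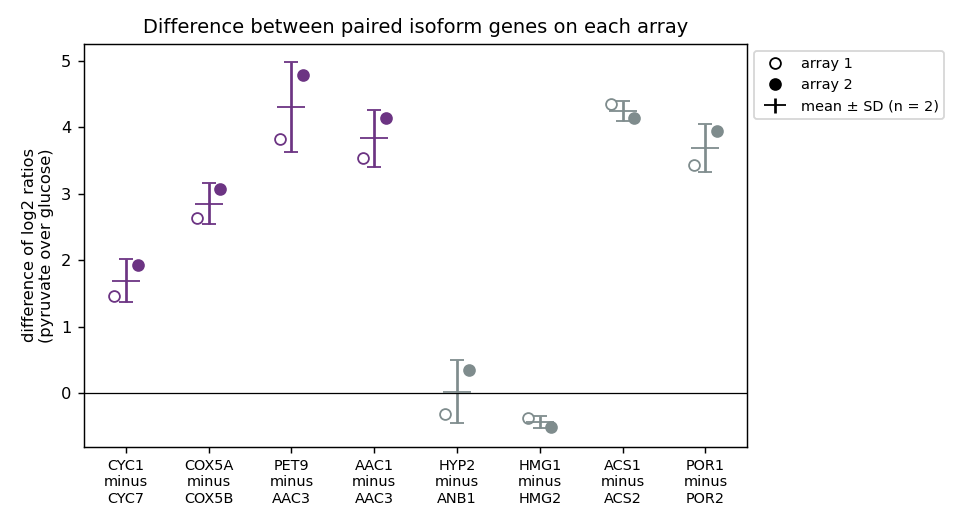
Difference of the log2 ratios (pyruvate over glucose) between paired genes on array 1 (open) and array 2 (filled), with the mean ± SD; purple marks the isoform pairs described and grey other pairs. CYC1 minus CYC7 lies between 1.46 and 1.93, PET9 minus AAC3 between 3.83 and 4.78, and HYP2 minus ANB1 on both sides of 0.

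Genes that low oxygen or lack of heme raises had ratios on both sides of 0. Of 14 measured genes of a list of 16, 4 rose, 2 fell and 8 did not pass limma's test, so that 42.9% were called, beside 44.3% of all genes. Their median was -0.09, beside 0.10 over all genes. OLE1, the fatty acid desaturase, rose by 1.35 ± 0.45, and DAN4, a cell wall mannoprotein gene of anaerobic cells, by 0.93 ± 0.17. HEM13, the oxygen-using coproporphyrinogen oxidase of heme synthesis and a known Rox1 target, rose by 0.79 ± 0.04, and PDR11, a sterol importer, by 0.76 ± 0.02. With centred arrays the last pair did not pass, at 0.68 for HEM13 (limma adjusted p of 0.112) and 0.65 for PDR11 (limma adjusted p of 0.128). FET4, a low-affinity iron transporter that Rox1 also represses, fell to -2.89 on array 1 and -4.07 on array 2, a mean of -3.48 ± 0.84. The cell wall gene TIR3 fell to -0.48 ± 0.04, a call lost with centred arrays, where its ratio was -0.59 (limma adjusted p of 0.179). Its relative TIR4, at -0.81 ± 0.46, did not pass (limma adjusted p of 0.075), though it did with centred arrays (limma adjusted p of 0.022). Nor did ERG11, a sterol demethylase (-0.61 ± 0.25), or UPC2, an activator of sterol and anaerobic genes (-0.56 ± 0.25), though both were called lower without dim features. DAN1, a cell wall gene induced without oxygen, read 1.19 on array 1 and -1.69 on array 2, so the arrays disagreed in sign, and 1 of its 2 features counted as dim. DAN4, PDR11 and HEM13 on one side and AAC3 and FET4 on the other thus differed in sign on both arrays within one group of oxygen-repressed genes. TIR3 and DAN1 are named after their values were seen.

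The genes of the Hap complex rose. All 4 passed limma's test, HAP2 rising by 1.11 ± 0.10, HAP3 by 1.89 ± 0.05, HAP4, the activating subunit that glucose represses, by 1.12 ± 0.23, and HAP5 by 0.80 ± 0.17. Among 12 genes of regulators of oxygen- and heme-controlled genes, 5 rose, 1 fell and 6 did not pass limma's test, so that 50% were called, beside 44.3% of all genes. Their median was 0.08. The fifth that rose was MGA2, the membrane-bound activator of OLE1, by 0.79 ± 0.07. HAP1, the heme-responsive activator, fell to -0.46 ± 0.05. With centred arrays HAP5 (0.69, limma adjusted p of 0.102), MGA2 (0.68, limma adjusted p of 0.112) and HAP1 (-0.57, limma adjusted p of 0.192) did not pass. TUP1 (-0.40 ± 0.07) and CYC8 (-0.12 ± 0.18), the co-repressor through which Rox1 acts, did not pass. For TUP1 the limma adjusted p was 0.054, and it was called lower without dim features. Nor did MOT3 (-0.32 ± 0.27), a repressor that acts with Rox1, or IXR1 (-0.17 ± 0.19), a regulator of COX5B and ROX1, pass. ROX1, TUP1 and CYC8 thus had means from -0.40 to -0.12, whereas the Hap subunit genes stood at 0.80 to 1.89.

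Most genes whose products work with these isoforms rose. Of 16, 13 rose, 1 fell and 2 did not pass limma's test, beside 27.1% higher and 17.2% lower over all genes. Their median was 2.77, beside 0.10 over all genes. This list, like the others, was chosen with earlier results of these data known, so these values are a description and nothing is read from the excess. CYB2, the lactate dehydrogenase that gives electrons to cytochrome c, rose by 5.57 ± 0.08. CYT1, cytochrome c1 of the bc1 complex, rose by 3.18 ± 0.35, close to CYC1 at 3.43. CYC3, the heme lyase that attaches heme to both cytochromes c, rose by 0.52 ± 0.13, a call that was lost with centred arrays, where its ratio was 0.41 (limma adjusted p of 0.381), and CCP1, the peroxidase that takes electrons from cytochrome c, was not called, at 0.25 on both arrays. The 7 genes of other nuclear subunits of the oxidase all rose, from 2.76 (COX13) to 3.73 ± 0.03 (COX12), with COX6 at 3.20 ± 0.07. COX5A, at 2.60, had a mean below each of them, though COX7 was lower on array 1, at 2.52 against 2.58. MIR1, the mitochondrial phosphate carrier, rose by 1.92 ± 0.11, close to PET9 at 2.11, while PIC2, a second phosphate carrier gene, was at -0.32 ± 0.18 and did not pass. COX7, COX13, MIR1 and POR1, described next, are named after their values were seen.

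**Figure D4:**
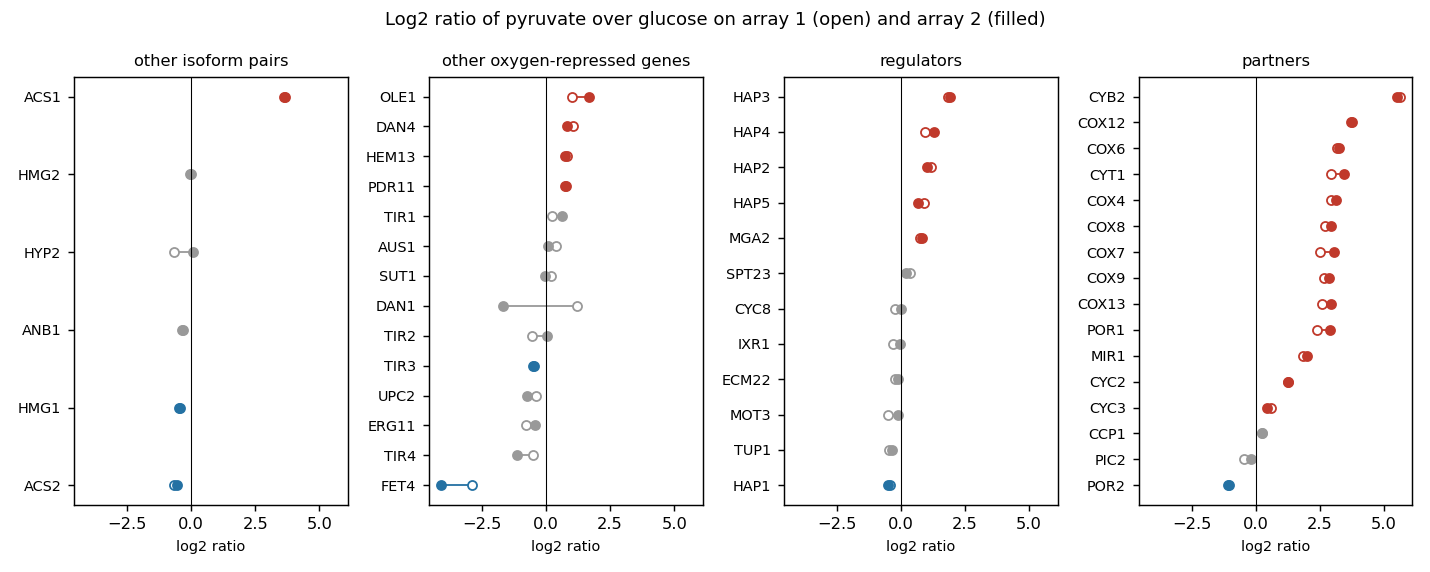
Log2 ratio of pyruvate over glucose on array 1 (open) and array 2 (filled) for the genes of 4 related lists, in red where limma called them higher, blue where lower and grey where not called. The partner list lies mostly above 0, with POR2 below -1, whereas the list of oxygen-repressed genes runs from FET4 at -3.48 to OLE1 at 1.35.

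The cytochrome c and eIF5A genes are known to lie together in a region that yeast holds in duplicate, and the ratios of neighbouring genes were therefore set beside those of the isoforms. By the order of coding genes in the RefSeq annotation of the strain S288C, ANB1, a hypoxic gene, lies next to CYC1, an aerobic one, with 0 coding genes between. HYP2, the aerobic partner of ANB1, has 4 coding genes between it and CYC7, the hypoxic partner of CYC1. CYC1 read 3.43 beside -0.33 for ANB1, and CYC7 read 1.73 beside -0.30 for HYP2, so the eIF5A genes did not share the ratios of the cytochrome c genes near them. The oxidase subunit genes lie near the genes of the 2 porins, channel proteins of the outer mitochondrial membrane. POR1, the main porin gene, has 4 coding genes between it and COX5A, and POR2 has 2 between it and COX5B. POR1 rose, with 2.40 on array 1 and 2.88 on array 2, a mean of 2.64 ± 0.34 (limma adjusted p of 0.0133). POR2 fell, with -1.04 on array 1 and -1.06 on array 2, a mean of -1.05 ± 0.02 (limma adjusted p of 0.0153). POR1 minus POR2 was 3.69 ± 0.36, beside 2.85 ± 0.31 for COX5A minus COX5B, so the porin gene near the aerobic subunit was the higher one and the porin gene near the hypoxic subunit the lower one. This comparison was chosen after the porin values were seen. Of the 15 measured coding genes directly next to the 8 genes, 3 rose, 3 fell and 9 did not pass, a share near the 44.3% called over all genes. Those that rose were UTR1 beside CYC1 (0.53), COG5 beside COX5A (0.91) and YBL029C-A beside PET9 (1.22), and those that fell were UTR2 beside CYC7 (-1.86), FET3 beside AAC1 (-1.87) and RPL19A beside AAC3 (-0.88), all named after their values were seen. UTR2 and FET3 thus had the opposite sign to CYC7 and AAC1 next to them. UTR1, COG5, YBL029C-A and RPL19A had the same sign as the isoform genes next to them.

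For each of the 8 genes the most similar of the other 5597 was taken as the one at the smallest distance over the ratios of both arrays. With 2 values a gene this is a weak measure, and 703 genes lay within 0.25 of ROX1 and 280 within 0.25 of COX5B. Few genes read like those at the ends of the range: 3 lay that close to CYC1 and 1 to AAC3. The nearest to CYC1 was MCR1, a mitochondrial NADH-cytochrome b5 reductase, at 3.24 on array 1 and 3.67 on array 2. The nearest to AAC3 was EFM6, a methyltransferase gene, at -1.99 on array 1 and -2.44 on array 2. PET9 was closest to TMA17 (mean 2.09), COX5A to AMS1, the vacuolar mannosidase (2.56), AAC1 to ARG1, of arginine synthesis (1.64), and CYC7 to YLR345W (1.71). COX5B was closest to YNL320W (-0.25) and ROX1 to PAH1, a phosphatidate phosphatase (-0.16 on array 1 and -0.15 on array 2).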

How the data were processed

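Per the labels, an Agilent kit for linear amplification was used for labelling and the dyes were exchanged between arrays. The authors deposited log2 channel ratios of 10807 features, and the sources used here state no scaling, background correction or channel order. The log base was read from dim features: 935 values on array 1 and 784 on array 2, the latter after a shift of 0.008, equalled, to 3 decimals, log2 of quotients of integers from 1 to 10, against medians of 134 and 142 and at most 651 and 635 at other shifts. The deposited medians were -0.29 on array 1 and -0.08 on array 2. Signs were turned on array 1, where Cy5 marked glucose. Of the features, 9202 had 1 gene, and features of a gene were averaged, giving 5598 genes. The platform's annotation was updated through gene identifiers for 9194 features. Genes were tested with limma 3.58.1 in R 4.3.3 (1 coefficient, 1 residual and, for the uncentred ratios, 1.67 prior degrees of freedom, Benjamini-Hochberg over all genes, threshold of 0.05). A term for dye was not fitted, since it would use up the residual degree of freedom. On simulated data with 5598 genes, of which 200 were set to change, 62.4% of genes set at 4-fold and 0.7% at 2-fold were recovered. Of the calls, 5.95% were false. In the real comparison 2482 genes were called, far more than the 200 set, so these rates need not hold for it. The 8 genes and the lists were chosen with earlier results of these data known. The genes named were the 8, any gene of the pairs and regulators, the 4 highest and 4 lowest means of the other lists, and the nearest gene to each of the 8. Sequences are not used here, and coordinates served only to order the coding genes along each chromosome. Tables and plots used pandas 2.3.3 and matplotlib 3.10.9 in Python 3.11.15.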

Additional observations from a re-analysis of the deposited data

How the results depend on the processing

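The precision is limited by the number of arrays, 2, and by the lack of signal values. Centring moved the median of all genes by -0.11 and left 921 genes called higher, against 1519 as reported, and centring with scaling left 922. Under each of the 2, limma called 0 of the other isoform pairs lower (1 at an unadjusted p under 0.05), 2 oxygen-repressed genes higher, 3 regulators higher and 0 lower (0 unadjusted). In these fits the adjusted p of the listed genes followed the size of the mean alone, so they differ from the main fit in more than the centring. Without moderation 5 genes were called higher and 5 lower, with 0 calls among the 8 genes and in each of the 4 lists (unadjusted, 1 and 1 of the pairs, 2 and 1 of the oxygen-repressed genes, 3 and 1 of the regulators, 11 and 1 of the partners, higher and lower). Against a 1.5-fold minimum the counts were 573 higher and 184 lower, with 0 pairs lower (0 unadjusted), 0 oxygen-repressed genes higher (2 unadjusted) and 1 lower, 1 regulator higher and 0 lower (0 unadjusted), and 0 partners lower (1 unadjusted). Features tested singly gave 1 oxygen-repressed gene lower. Without dim features 4 of that list and 2 regulators were called lower. The causes were not tested. Array by array, 774 to 1093 genes were at least 2-fold higher and 408 to 464 lower, against 713 and 269 on both. Each of the 8 ratios and the isoform differences kept its sign under every alternative except the opposite channel order. In that order CYC1 would read -3.43, CYC7 -1.73, COX5A -2.60, COX5B 0.25, AAC1 -1.64, PET9 -2.11, AAC3 2.19 and ROX1 0.16, and the differences -1.70 for CYC1 minus CYC7, -2.85 for COX5A minus COX5B, -4.30 for PET9 minus AAC3 and -3.83 for AAC1 minus AAC3.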
